A study of Mus musculus with 96 samples.

Results

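The endoplasmic reticulum (ER) chaperone and stress genes described here are 10 genes chosen by name: Hspa5, Hsp90b1, Dnajb11, Sdf2l1, Calr, Pdia3, Pdia4, Pdia6, Xbp1 and Herpud1. They were chosen with earlier results of these data known, so their counts beside those of all tested genes are a description. All 10 were found among the 22384 genes measured in every genotype. They were also among the 12144 tested genes, which averaged 1 RPKM or more over all libraries. RPKM is a read density corrected for transcript length and library size. Poly(A) RNA was sequenced from back-skin epidermis, freed from the dermis with dispase and filtered to single cells, of 8-week-old C57BL/6 males. Lights were on for 12 h and off for 12 h, and 4 mice of each genotype were taken at each of 6 zeitgeber times (ZT, hours after lights on), 4 h apart from ZT0 to ZT20, for 96 libraries in all. The question the design asks is which daily rhythms of the epidermis need a clock in the epidermis, in the brain, or in both.

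There were 4 genotypes, with 24 mice each. WT mice carried intact Arntl (Arntl wt/wt), the gene of the clock activator BMAL1, together with K14Cre wt/tg and Syt10-Cre tg/wt, so that the reference group also bore both Cre transgenes. The other genotypes carried Arntl stopFL/stopFL, in which a stop cassette silences Arntl until Cre removes it. RERE mice carried K14Cre tg/wt, active in keratinocytes, and Syt10-Cre tg/wt, active in brain including its central clock, and are labelled as reconstituted in both tissues. EpiRE mice carried K14Cre tg/wt with Syt10-Cre wt/wt, and BRE mice K14Cre wt/wt with Syt10-Cre tg/wt, so their clock was restored in epidermis or in brain respectively. Other tissues of RERE, EpiRE and BRE mice lacked the restored gene wherever these drivers are silent. Tissue other than epidermis was not measured.

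The ER is where secreted and membrane proteins fold. Its lumen holds the HSP70 chaperone BiP, the HSP90 paralog GRP94, lectin chaperones that hold glycoproteins, and protein disulfide isomerases that form and reshuffle disulfide bonds. When unfolded protein builds up, the sensors IRE1, PERK and ATF6 start the unfolded protein response. IRE1 splices the Xbp1 transcript into the form that encodes an active transcription factor, and XBP1 and ATF6 then raise chaperone and degradation genes through ER stress response elements in their promoters. Keratinocytes make large amounts of adhesion protein, lipid and secreted barrier components and carry this machinery at all times.

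The promoters of 4 members are shown first because they hold, between them, the forms of the ER stress response element that were found and the single E-box of the set, the motif that BMAL1 with CLOCK is known to bind. Each run is the 250 bases before the RefSeq start site of the gene (assembly GRCm38.p6, the same as mm10), 5′ to 3′ on the gene's strand, and capitals mark the fixed letters of a matched motif.
Hspa5 (chr2:34771840-34772089, plus strand): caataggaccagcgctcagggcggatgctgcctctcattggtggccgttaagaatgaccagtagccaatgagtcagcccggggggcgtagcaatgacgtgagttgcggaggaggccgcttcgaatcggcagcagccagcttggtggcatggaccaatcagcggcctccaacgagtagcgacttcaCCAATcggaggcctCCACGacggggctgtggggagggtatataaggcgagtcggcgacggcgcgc
Hsp90b1 (chr10:86705445-86705694, minus strand): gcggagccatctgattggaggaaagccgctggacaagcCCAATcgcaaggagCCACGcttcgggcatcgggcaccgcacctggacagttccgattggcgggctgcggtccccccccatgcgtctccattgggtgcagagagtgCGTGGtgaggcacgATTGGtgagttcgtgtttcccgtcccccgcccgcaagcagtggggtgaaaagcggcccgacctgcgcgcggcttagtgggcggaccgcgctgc
Calr (chr8:84846932-84847181, minus strand): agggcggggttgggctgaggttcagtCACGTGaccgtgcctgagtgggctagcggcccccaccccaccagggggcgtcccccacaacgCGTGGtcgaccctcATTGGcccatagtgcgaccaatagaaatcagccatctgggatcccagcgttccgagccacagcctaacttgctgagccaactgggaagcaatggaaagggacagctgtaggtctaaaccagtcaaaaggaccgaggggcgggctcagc
Herpud1 (chr8:94386179-94386428, plus strand): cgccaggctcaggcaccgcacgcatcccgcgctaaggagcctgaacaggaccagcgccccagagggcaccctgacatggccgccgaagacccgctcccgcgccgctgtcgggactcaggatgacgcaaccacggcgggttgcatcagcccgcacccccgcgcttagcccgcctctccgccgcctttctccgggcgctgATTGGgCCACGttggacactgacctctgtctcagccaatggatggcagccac
A pair of further members carried a match, and these sites are shown alone.
Pdia6: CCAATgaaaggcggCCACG
Dnajb11: ATTGGcCCACG

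The ER stress response element, CCAAT and CCACG set apart by 9 bases of any kind, was searched on both strands of the 300 bases from 250 before to 50 after each start site. It was found in 4 of the 10 members: in Hspa5 at positions -65 to -47 from the start site, in Pdia6 at -98 to -80, in Calr in reverse orientation at -162 to -144, and in Hsp90b1 at -212 to -194 and, reversed, at -107 to -89. Among all 32851 RefSeq promoters of that length 0.119% held it, and 0.177% of the 9017 tested genes listed there did. The second form of the element, ATTGG and CCACG set apart by 1 base, stood in Herpud1 at -52 to -42 and in Dnajb11 at 8 to 18 bases after the start, against 0.0365% of all promoters and 0.0887% of the tested genes. The unfolded protein response element was searched only as TGACGTGG, which no member held, against 0.676% of promoters and 1.01% of the tested genes. Variants of it were not searched, and the Hspa5 run above holds TGACGTGA, which differs in the last letter. Calr alone held the E-box CACGTG, at -224 to -219, against 7.15% of promoters and 12.2% of the tested genes. Pdia3, Pdia4, Sdf2l1 and Xbp1 had none of these 4 strings of letters in the window. A match is a string of letters, and its absence says nothing of the factor.

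Estimated depth was 11.4 to 32.8 M reads per library, with a median of 16.7 M reads. Errors of levels and of log2 ratios are SDs between mice, and those of rhythm sizes and differences are standard errors of the fit. The other 9 members rested on medians of 855 to 8028 estimated reads per library, while Sdf2l1, the weakest, had a median of 167 and a lowest of 94.0. The labelled tissue was borne out by its markers, with summed basal keratinocyte keratins and adhesion genes at medians of 13892 to 14975 RPKM in the 4 genotypes. The 4 endothelial genes (Pecam1, Cdh5, Kdr, Tie1) summed to at most 0.353 RPKM in any library. In bulk tissue, fewer cells of a type and less RNA per cell cannot be told apart. Tables of the 4 genotypes were normalized separately by the authors, so levels are given side by side and are not tested between genotypes.

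The order of abundance was the same in all 4 genotypes: Calr, Pdia3, Hspa5, Hsp90b1, Herpud1, Pdia6, Pdia4, Xbp1, Dnajb11 and Sdf2l1. In WT the first 4 had mean levels of 140.4 ± 40.2, 138 ± 23.8, 125 ± 29.5 and 116 ± 35.9 RPKM (SD, n = 24 mice over all times), with overlapping spreads. That spread includes the daily course, and the levels of different genes were not tested against one another. Herpud1 (56.3 ± 13.0), Pdia6 (46.2 ± 11.3) and Pdia4 (37.2 ± 10.3) overlapped one another, and Xbp1 (26.2 ± 5.22) overlapped Pdia4. Dnajb11 followed at 16.8 ± 3.18 and Sdf2l1 at 10.7 ± 4.85 RPKM, again with overlapping spreads. Over all 4 genotypes the mean of Calr ranged from 132 to 145 RPKM, and that of Sdf2l1 from 9.66 to 10.7.

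In WT epidermis all 10 genes had a daily rhythm, against 34.4% of all genes tested. Rhythm size is given as the log2 distance from trough to peak ± its standard error, taken from a 24 h cosine curve through 24 mice, and a rhythm was called at an adjusted p below 0.05 (limma, Benjamini-Hochberg over all tested genes). A called rhythm with a peak between ZT18 and ZT24 was found in 16.4% of tested genes and in 9 of the 10 members, at ZT19.3 to ZT21.6, whereas Herpud1 peaked at ZT10.2, shortly before lights off. The median size over the 10 was 0.69, against 0.23 over all tested genes. Of the WT genes called, 47.8% peaked between ZT18 and ZT24, or 30.5% after a rescaling of the libraries by the median of their ratios, against 9 of 10 members. After that rescaling 9 members were called, against 31.8% of genes, and 8 of them peaked in those hours. For 9 of the 10 genes, Hspa5 being the exception, the 4 mice of the highest time lay wholly above those of the lowest time, against 52.7% of tested genes.

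Calr encodes calreticulin, the soluble lectin chaperone of glycoproteins (chr8:84841850-84846934). It measured 171, 181, 191 and 163 RPKM in the 4 WT mice at ZT0 and 89.2, 99.8, 111 and 119 RPKM at ZT8. The mice of ZT0 all lay above those of ZT8. The fitted rhythm was 0.90 ± 0.12 log2, a 1.86-fold swing with a peak at ZT21.1 (adjusted p = 4.36e-05).

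Hsp90b1 encodes GRP94, the ER form of HSP90 (chr10:86690209-86705509). It measured 148, 164, 166 and 137 RPKM at ZT0 and 80.3, 83.2, 79.4 and 87.3 RPKM at ZT12, with no overlap, and its rhythm of 0.93 ± 0.14 log2 peaked at ZT21.6 (adjusted p = 0.000141).

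The 3 protein disulfide isomerases moved with them. Pdia3, the partner of calreticulin and calnexin on glycoproteins (chr2:121413775-121438687), had the smallest swing of the 3, at 0.56 ± 0.08 log2 with a peak at ZT21.3 (adjusted p = 4.59e-05), from 159, 170, 156 and 157 RPKM at ZT0 to 112, 120.0, 105 and 114 RPKM at ZT12. Pdia4 (chr6:47796141-47813430) swung by 0.83 ± 0.13 log2 with a peak at ZT20.5 (adjusted p = 0.000173). Pdia6 (chr12:17266545-17284770), which is also known to act on the sensor IRE1, swung by 0.77 ± 0.10 log2 with a peak at ZT20.3 and had the smallest adjusted p of the 10 genes, 2.68e-05. Its mice at ZT0 stood at 55.4, 57.7, 56.8 and 46.4 RPKM and at ZT8 at 36.3, 31.0, 36.7 and 37.7 RPKM, without overlap.

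The co-chaperones of BiP rose at the same hours. Sdf2l1 encodes a lumenal protein found with BiP and the J-domain protein that Dnajb11 encodes (chr16:17130138-17132383). It had the largest rhythm of the 10 genes, 1.38 ± 0.21 log2 or 2.61-fold, with a peak at ZT20.0 (adjusted p = 0.000179). Its WT mice stood at 15.1, 11.8, 12.8 and 17.6 RPKM at ZT16 and at 5.83, 7.97, 6.40 and 6.94 RPKM at ZT12, 4 h earlier, with no overlap between the times. Dnajb11, which hands unfolded clients to BiP (chr16:22857845-22879634), swung by 0.59 ± 0.09 log2 with a peak at ZT20.2 (adjusted p = 0.00019).

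Hspa5 encodes BiP itself, the chief HSP70 of the ER and the usual marker of ER stress (chr2:34771970-34777547). It was the least regular of the 9 genes with a night peak. Its WT mice spread from 111 to 197 RPKM at ZT0, from 117 to 191 at ZT20 and from 84.7 to 127 at ZT4, so the highest and the lowest times overlapped. Its rhythm of 0.51 ± 0.16 log2, with a peak at ZT19.3, passed at an adjusted p of 0.0499648 and did not pass after rescaling (0.0995), without the filter on low values (0.0886) or without the variance trend (0.0502). In fits that left out 1 library at a time it was called in 8 of 24, namely without ZT0 mouse 3, ZT4 mouse 1, ZT8 mouse 4, ZT12 mice 1 and 3, ZT16 mice 2 and 3, or ZT20 mouse 1.

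Xbp1 encodes the transcription factor that IRE1 activates by splicing (chr11:5520659-5525893). Gene-level values add the spliced and unspliced forms and do not show how much of the RNA was active. Xbp1 measured 31.2, 34.5, 32.3 and 34.3 RPKM at ZT0 and 25.3, 22.8, 18.8 and 21.4 RPKM at ZT12, without overlap, and swung by 0.53 ± 0.12 log2 with a peak at ZT21.3 (adjusted p = 0.00468).

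Herpud1 encodes a membrane protein of the degradation complex that removes misfolded ER proteins, and is a known target of the stress response (chr8:94386438-94395377). Its WT mice stood at 77.3, 77.3, 96.5 and 70.8 RPKM at ZT12 and at 42.4, 44.2, 45.6 and 45.3 RPKM at ZT20. It was thus at its highest when Calr, Hsp90b1 and the isomerases were low and at its lowest when they were high. The rhythm was 0.62 ± 0.12 log2 with a peak at ZT10.2 (adjusted p = 0.00122).

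**Figure D1:**
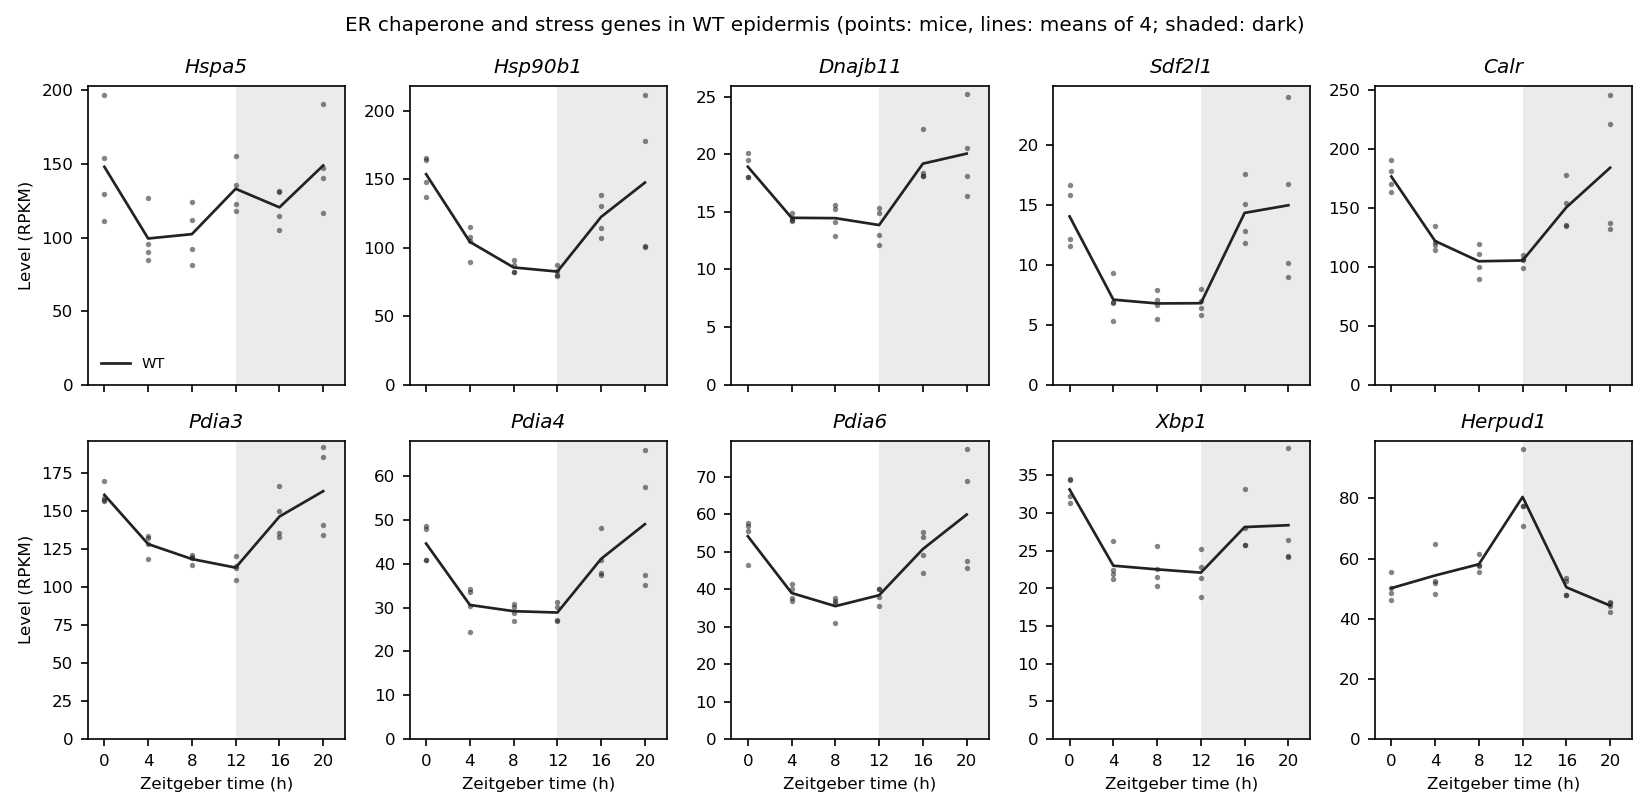
Level in RPKM (vertical axes, from 0) of the 10 genes against zeitgeber time in hours in WT epidermis; points are mice, lines join the means of 4 mice, and shading marks the dark phase. Calr, Hsp90b1, the isomerases, Sdf2l1 and Dnajb11 were high from ZT16 to ZT0 and Herpud1 at ZT12, and at ZT20 the first of these split into a high and a low pair of mice.

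The 4 WT mice of ZT20 fell into pairs. Mice 2 and 3 were high and mice 1 and 4 lower: Calr measured 132, 246, 221 and 137 RPKM in mice 1 to 4, Hsp90b1 101, 211, 178 and 100.2, and Sdf2l1 9.0, 23.97, 16.8 and 10.1. Xbp1 was high in mouse 2 alone, at 38.6 RPKM against 24.1 to 26.4 in the others. Hspa5 did not follow the pairs, at 117, 191, 141 and 147 RPKM in mice 1 to 4. Herpud1 did not split, at 42.4 to 45.6 RPKM in the same mice. Other measures moved with the split. Estimated depth was 12.7, 19.1, 18.01 and 13.2 M reads in mice 1 to 4, the summed level of 14 immediate early and stress genes known to respond to tissue handling was 11333, 5697, 8191 and 12481 RPKM, that of 6 fibroblast genes was 21.2, 3.22, 2.51 and 10.7 RPKM, and that of 6 sebaceous genes was 45.3, 9.91, 9.14 and 33.1 RPKM. Their part in the split was not tested. Depth had r = 0.06 with the mean of the 9 genes other than Herpud1, each centred on its genotype, over 96 libraries. In the 24 WT libraries r was 0.14. Both values cover all times and do not bear on the 4 mice of ZT20. With the 4 WT libraries of ZT20 left out, an alternative chosen after seeing the data, 9 of 10 genes kept a called rhythm with sizes of 0.56 (Herpud1) to 1.63 (Sdf2l1), and Hspa5 did not pass (adjusted p = 0.177). The share of all tested genes called in that setting is not given.

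Because each mouse gives both genes, a common scaling of a library cancels from the log2 ratio of Herpud1 to Calr. In WT it was -0.51, -0.45, -0.03 and -0.59 at ZT12 and -1.64, -2.48, -2.28 and -1.60 at ZT20. The means were -0.396 ± 0.250 and -1.998 ± 0.446 (SD, n = 4 mice), and the mice did not overlap. In RERE the means were -0.49 ± 0.54 at ZT12 and -1.20 ± 0.37 at ZT20, with overlapping mice, and -1.78 ± 0.17 at ZT0, below every mouse of ZT12. In BRE they were -0.83 ± 0.26 at ZT12, -1.53 ± 0.25 at ZT20 and -1.84 ± 0.28 at ZT0, and the mice of ZT12 lay above those of both other times. In EpiRE the ratio was -1.18 ± 0.45 at ZT12, -1.66 ± 0.07 at ZT20 and -1.20 ± 0.045 at ZT0. The EpiRE mice of ZT20 (-1.72 to -1.56) lay below every mouse of ZT0 (-1.27 to -1.16), while those of ZT12 (-1.58 to -0.53) overlapped both.

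**Figure D2:**
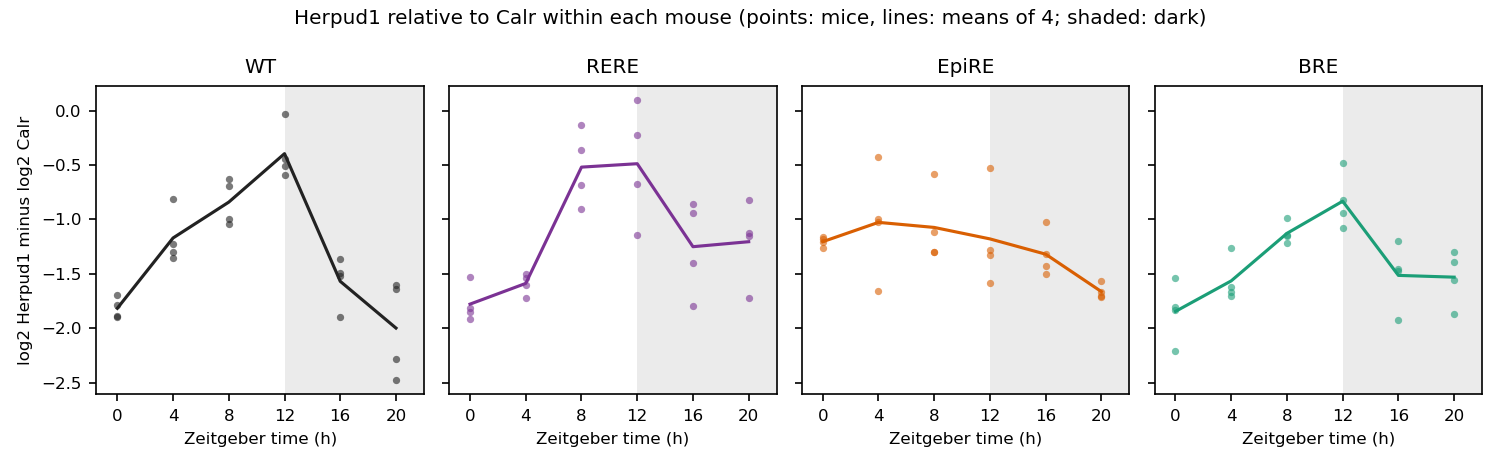
Difference of the log2 levels of Herpud1 and Calr in each mouse (vertical axis) against zeitgeber time in hours, 1 panel per genotype; points are mice, lines join the means of 4, and shading marks the dark phase. The ratio rose towards ZT12 in WT, RERE and BRE, and in EpiRE its means stayed between -1.66 and -1.03.

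With the clock restored in brain and epidermis together (RERE), 6 of the 10 genes had a called rhythm, against 16.4% of all tested genes. Hsp90b1 was the clearest, at 0.62 ± 0.11 log2 with a peak at ZT22.4 (adjusted p = 0.00236), from 145, 178, 138 and 129.6 RPKM at ZT0 to 97.2, 89.0, 78.6 and 86.6 RPKM at ZT8. Calr (0.56 ± 0.13), Pdia6 (0.47 ± 0.11), Pdia4 (0.44 ± 0.11) and Pdia3 (0.32 ± 0.07) were also called, with adjusted p from 0.0127 to 0.0202, and all 5 peaked between ZT22.2 and ZT22.9. Of all tested genes 4.15% were called with a peak between ZT18 and ZT24 in RERE. Herpud1 swung by 0.69 ± 0.18 log2 with a peak at ZT12.2 (adjusted p = 0.0273), from 101, 84.3, 74.4 and 63.2 RPKM at ZT12 to 48.5, 45.4, 42.1 and 41.4 RPKM at ZT4, though 1 mouse of ZT20 also stood at 89.9 RPKM. Without ZT12 mouse 1 or ZT12 mouse 2 the Herpud1 call was lost (adjusted p of 0.0668 and 0.0566), and it was lost without the filter on low values (0.0513). The genes that did not pass were Sdf2l1 (0.64 ± 0.19, adjusted p = 0.0595, called in 4 of 24 fits that left out 1 library), Dnajb11 (0.26 ± 0.08, adjusted p = 0.084, called in 2 of 24), Hspa5 (0.47 ± 0.17, adjusted p = 0.142) and Xbp1 (0.16 ± 0.10, adjusted p = 0.487). The groups of the highest and lowest time did not overlap for 7 of 10 genes, against 37.7% of tested genes.

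With the clock restored in epidermis alone (EpiRE), few genes of the tissue were rhythmic by this test, 2.87% of those tested, and 4 of the 10 members were among them: Calr (0.51 ± 0.09 log2, peak ZT18.9, adjusted p = 0.0171), Hsp90b1 (0.33 ± 0.07, peak ZT19.7, 0.0242), Pdia3 (0.29 ± 0.06, peak ZT19.4, 0.0308) and Pdia6 (0.28 ± 0.07, peak ZT18.7, 0.0413). All 4 peaked between ZT18 and ZT24, and 0.165% of tested genes were called in EpiRE with such a peak. Calr stood at 179.9, 162, 160.3 and 152 RPKM at ZT20 and at 96.9, 106, 143 and 101 RPKM at ZT4, without overlap. Herpud1 was flat, with a fitted swing of 0.01 ± 0.14 log2 (adjusted p = 1) and means between 51.6 and 63.6 RPKM at the 6 times. Hspa5 had a fitted swing of 0.51 ± 0.17 log2 and did not pass (adjusted p = 0.162), nor did Pdia4 (0.31 ± 0.08, 0.0726), Sdf2l1 (0.54 ± 0.15, 0.0869), Dnajb11 (0.25 ± 0.07, 0.103) or Xbp1 (0.37 ± 0.11, 0.113). Highest and lowest times did not overlap for 8 of 10 genes, against 32.1% of tested genes. The count of 4 fell to 2 without any 1 of 5 libraries (ZT4 mouse 1, ZT4 mouse 2, ZT16 mouse 4, ZT20 mouse 1 or ZT20 mouse 2), when Pdia3 and Pdia6 did not pass. Pdia6 was called in 9 of 24 such fits, namely those without ZT0 mouse 1 or 2, ZT4 mouse 3, ZT8 mouse 1 or 3, ZT16 mouse 1, 2 or 3, or ZT20 mouse 4.

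With the clock restored in brain alone (BRE), where by design the epidermis itself lacks BMAL1, 5 of the 10 genes had a called rhythm, against 17.1% of tested genes. They were Calr (0.46 ± 0.10 log2, peak ZT21.1, adjusted p = 0.0115), Pdia6 (0.42 ± 0.09, peak ZT22.2, 0.0128), Pdia3 (0.23 ± 0.06, peak ZT22.4, 0.0218), Hsp90b1 (0.35 ± 0.10, peak ZT20.7, 0.043) and Herpud1 (0.50 ± 0.11, peak ZT12.9, 0.0139). Of all tested genes 3.32% were called in BRE with a peak between ZT18 and ZT24, as 4 members were. Herpud1 stood at 76.8, 72.4, 62.4 and 72.3 RPKM at ZT12 and at 41.8, 55.8, 47.1 and 42.7 RPKM at ZT4, without overlap. Calr stood at 147, 188, 172 and 190.0 RPKM at ZT0 and at 113, 117, 128 and 117 RPKM at ZT8, again without overlap. Pdia4 missed the threshold at an adjusted p of 0.052 and passed after rescaling (0.0452), where Pdia3 did not (0.0727). Hsp90b1 was called in 8 of 24 fits that left out 1 library, namely those without ZT0 mouse 1, ZT8 mouse 1 or 3, ZT12 mouse 4, ZT16 mouse 1, or ZT20 mouse 2, 3 or 4. Dnajb11 (0.11 ± 0.07), Sdf2l1 (0.34 ± 0.14) and Hspa5 (0.33 ± 0.17) had adjusted p from 0.168 to 0.444. Highest and lowest times did not overlap for 6 of 10 genes, against 43.6% of tested genes.

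Xbp1 had another course in BRE. Its mice stood at 31.7, 33.4, 27.6 and 30.4 RPKM at ZT8 and at 29.0, 34.7, 33.6 and 27.3 RPKM at ZT16, and lower between and after, at 24.8, 24.5, 28.5 and 28.4 RPKM at ZT12 and at 26.9, 25.7, 25.04 and 22.7 RPKM at ZT20. A single cosine described this poorly (0.14 ± 0.09 log2, adjusted p = 0.487), whereas the test that gives each time its own mean passed (adjusted p = 0.0339).

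**Figure D3:**
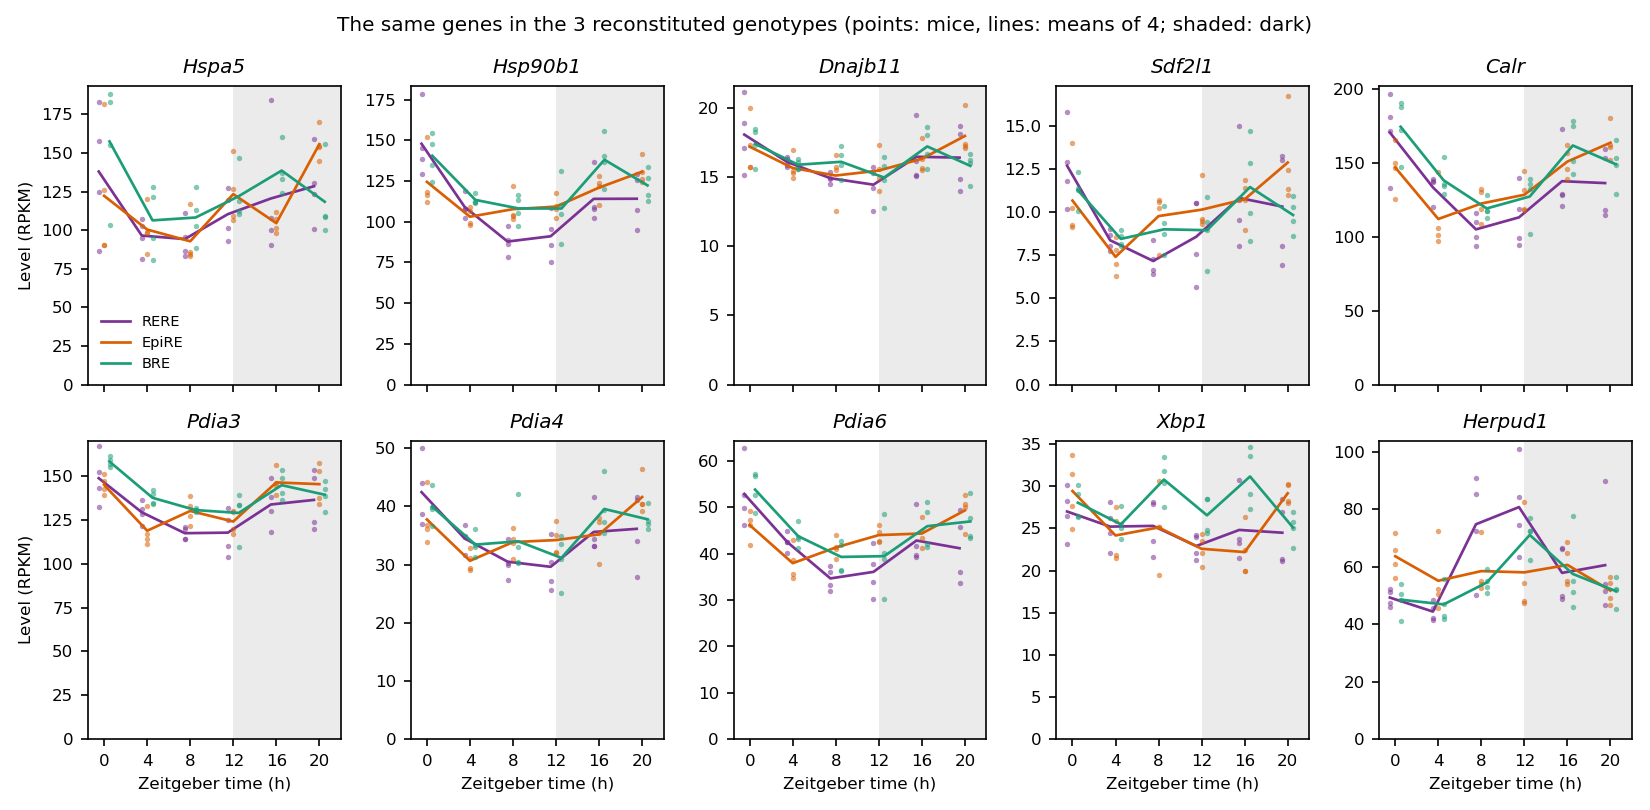
Level in RPKM (vertical axes, from 0) of the 10 genes against zeitgeber time in hours in RERE, EpiRE and BRE; points are mice, lines join the means of 4 mice, points of the 3 genotypes are set slightly apart, and shading marks the dark phase. Calr, Hsp90b1 and the isomerases were lower on average at ZT4 and ZT8 than at ZT0 in all 3, and the Herpud1 peak near ZT12 was present in RERE and BRE.

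The authors' deposited tables give JTK_CYCLE q values below 0.05 for 9 of the 10 genes in WT (20.8% of tested genes), for 3 in RERE (8.52%), for 1 in BRE (5.67%) and for 0 in EpiRE (0.156%). The lowest WT values of the authors' deposited table were q = 0.0002 for Calr and for Pdia6, and the gene above 0.05 was Hspa5 at 0.211. BIOCYCLE q values in the authors' deposited tables were below 0.05 for 8 genes in WT, against 10% of the tested genes, and for 0 genes in RERE (1.56% of tested genes), in BRE (0%) and in EpiRE (0%), where the lowest were 0.115, 0.116 and 0.267. By limma 10 WT members (45.4% of tested genes), 6 BRE members (34.2%), 9 RERE members (31.4%) and 9 EpiRE members (20.5%) had an unadjusted p below 0.05.

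Rhythms were smaller than in WT for 9 of 10 genes in RERE, 9 of 10 in EpiRE and all 10 in BRE, against 65.9%, 72.5% and 58.5% of all tested genes. The median ratio of the size to that in WT was 0.583 in RERE, 0.401 in EpiRE and 0.397 in BRE. Over the 4174 genes called in WT the same medians were 0.655, 0.424 and 0.573. These comparisons share the WT libraries and are not independent of one another. The genes that were not smaller were Herpud1 in RERE, at 1.13 times its WT size, and Hspa5 in EpiRE, at 1.01 times.

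**Figure D4:**
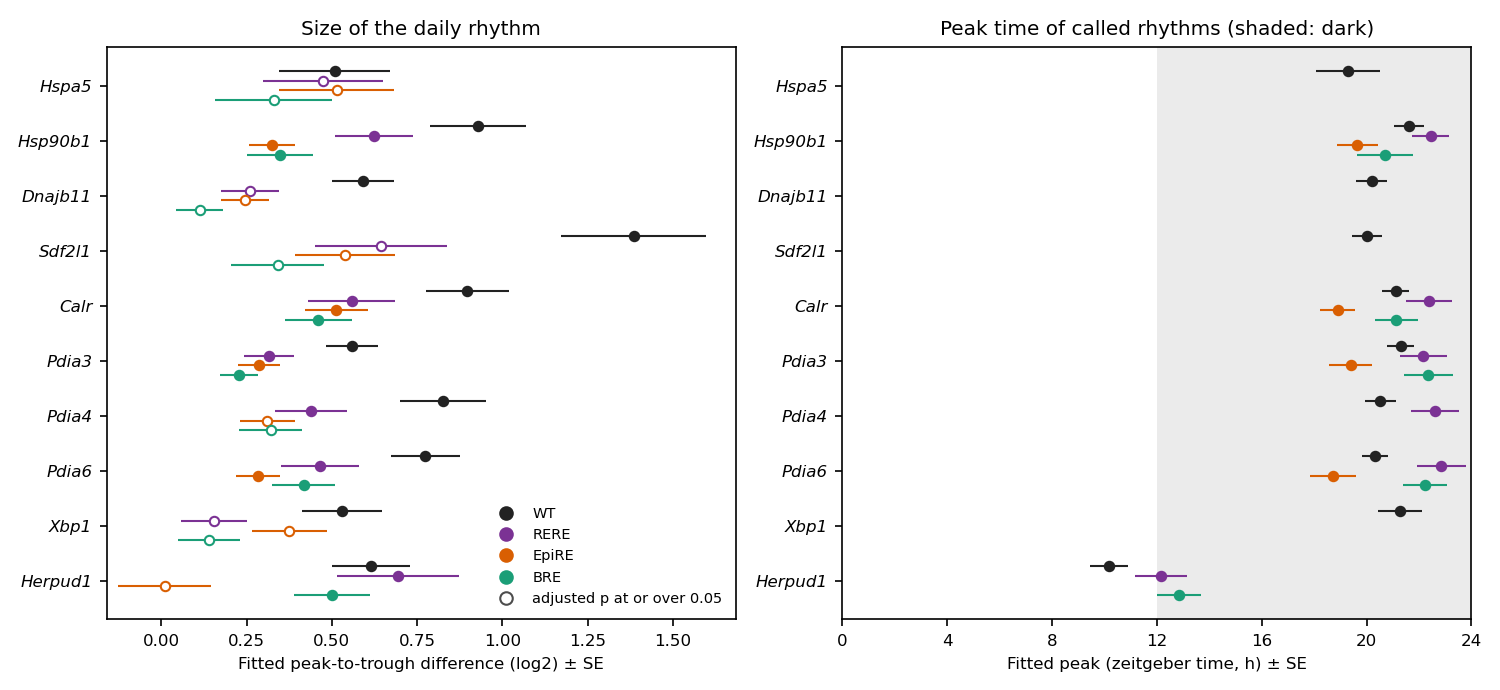
Left, fitted peak-to-trough difference in log2 units ± SE of each gene in each genotype, with open symbols where the adjusted p was 0.05 or higher; right, fitted peak in zeitgeber hours ± SE for called rhythms, with the dark phase shaded. WT sizes were the largest for 8 genes, and Herpud1 alone peaked between ZT10.2 and ZT12.9.

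Whether a rhythm differed between 2 genotypes was tested on both together, as a difference of the fitted curves with a free mean for each genotype, for 6 pairs. The size of a difference is the trough-to-peak span of the curve obtained by subtracting one genotype's fitted curve from the other's. Between WT and BRE 6 of the 10 genes passed, against 20.2% of tested genes, and all 6 swung more widely in WT; 14.6% of tested genes both passed and swung more widely in WT. The 6 were Xbp1 (difference 0.65 ± 0.15 log2, adjusted p = 0.00591), Dnajb11 (0.50 ± 0.12, 0.00605), Sdf2l1 (1.05 ± 0.26, 0.00953), Pdia3 (0.35 ± 0.09, 0.0229), Hsp90b1 (0.60 ± 0.17, 0.0317) and Pdia6 (0.45 ± 0.14, 0.0419). Under the test that gives each time its own mean, 3 of these passed and Hsp90b1 (0.156), Pdia3 (0.0717) and Pdia6 (0.211) did not. Pdia4 (0.51 ± 0.16, 0.0506), Calr (0.44 ± 0.16, 0.102), Herpud1 (0.40 ± 0.16, 0.159) and Hspa5 (0.18 ± 0.24, 0.845) did not pass. Without the 4 WT libraries of ZT20 the count was 8, with Pdia4 (0.031) and Calr (0.0373) added, and the share of all tested genes in that setting is not given. Of 5 suprabasal keratinocyte markers 3 also differed between WT and BRE, against 20.2% of tested genes, and their part in the members' differences was not tested.

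Between WT and EpiRE 4 genes passed, against 8.51% of tested genes, and all 4 were larger in WT; 7.73% of tested genes both passed and were larger in WT. The 4 were Pdia6 (difference 0.53 ± 0.12 log2, adjusted p = 0.0123), Hsp90b1 (0.67 ± 0.16, 0.0148), Sdf2l1 (0.97 ± 0.26, 0.0388) and Calr (0.55 ± 0.15, 0.0477). Herpud1, with a swing of 0.62 log2 in WT and 0.01 in EpiRE, differed by 0.61 ± 0.18 (adjusted p = 0.0604, or 0.0385 after rescaling, when Calr and Sdf2l1 did not pass). Under the test with 1 mean per time only Herpud1 passed (adjusted p = 0.0296). Leaving out the WT libraries of ZT20 gave 6 genes, with Pdia3 (0.0213) and Pdia4 (0.0243) added, and the share of all tested genes in that setting is not given. With all libraries, Pdia4 (0.53 ± 0.15, 0.0534), Pdia3 (0.34 ± 0.10, 0.0576), Dnajb11 (0.35 ± 0.12, 0.104) and Xbp1 (0.28 ± 0.16, 0.456) did not pass. For Hspa5 the difference was 0.02 ± 0.24 log2, an error too wide to show that its curves were alike.

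Between WT and RERE none of the 10 genes passed, against 0.453% of tested genes (limma, with 5 of the 10 at an unadjusted p below 0.05, against 13.7% of tested genes, and 0 by each alternative). The differences ran from 0.10 ± 0.24 log2 for Hspa5 to 0.77 ± 0.29 for Sdf2l1, so differences of this size were not resolved. No gene passed between RERE and EpiRE, against 4.04% of tested genes, with 4 genes at an unadjusted p below 0.05 (19.1% of tested genes) and the widest difference in Herpud1 (0.70 ± 0.23, adjusted p = 0.137). None passed between RERE and BRE, against 4.79%, with 0 genes at an unadjusted p below 0.05 (14% of tested genes). Between EpiRE and BRE 1 of the 10 passed, against 13.9%: Xbp1, with a difference of 0.51 ± 0.14 log2 (adjusted p = 0.0355), from a fitted peak at ZT23.4 in EpiRE to one at ZT11.9 in BRE. Neither curve was called on its own, and the difference was not called when the filter on low values was dropped (0.0637).

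The members moved together from mouse to mouse. After each gene was centred on its genotype mean, the 28 pairs among Hspa5, Hsp90b1, Dnajb11, Sdf2l1, Calr, Pdia3, Pdia4 and Pdia6 had Pearson r values of 0.48 to 0.94 with a median of 0.87 over 96 libraries. After centring on each genotype and time, which removes the daily course, the median was 0.78. The closest pair was Calr with Pdia3 (r = 0.94, or 0.87 within times). Hspa5 was the loosest of the 8, with r of 0.60 to the mean of the other members, and Xbp1 likewise had 0.60. Herpud1 ran against the others, with a median r of -0.45 that was -0.14 within times. These correlations share libraries, scaling and depth and are given as a description.

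**Figure D5:**
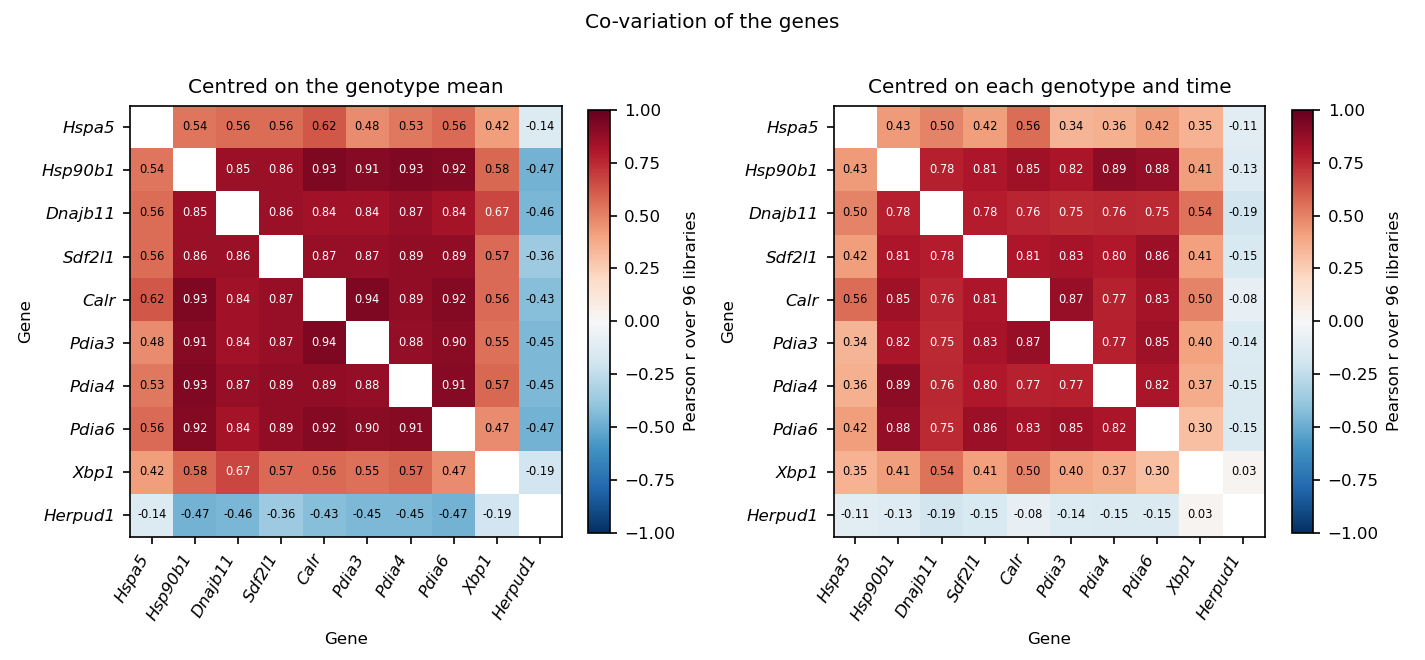
Pearson r between each pair of the 10 genes over 96 libraries, as colour and number, after centring on the genotype mean (left) and on the mean of each genotype and time (right). The 7 chaperones other than Hspa5 formed a block of r from 0.84 to 0.94 on the left, Xbp1 and Hspa5 were looser, and Herpud1 was negative with the other 9.

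The 10 genes outside the set whose course was most like the mean of the members, over the same 96 libraries, were Stip1 (r = 0.90), Manf (0.87), Creld2 (0.87), Fkbp4 (0.86), Ahsa1 (0.84), Rpn1 (0.82), St13 (0.81), Hsph1 (0.81), Nudc (0.80) and Hspd1 (0.80). The median r over 11904 other tested genes was 0.045, and 0.269% exceeded 0.7. Manf and Creld2 encode small ER proteins induced by stress, and Rpn1 a subunit of the oligosaccharyltransferase that glycosylates nascent chains. Stip1, Fkbp4, Ahsa1 and St13 encode co-chaperones of the cytosolic HSP70 and HSP90, Hsph1 a cytosolic exchange factor, and Hspd1 the mitochondrial HSP60. Since they were chosen by their correlation with the members over these same libraries, their daily course is a description and no further support. Their fitted WT peaks ran from ZT19.0 (Nudc) to ZT20.7 (St13), with sizes such as 0.97 ± 0.17 log2 for Creld2 and 0.71 ± 0.12 log2 for Manf.

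Genes of 4 wider ER lists were counted beside the members. The shares of all tested genes called, against which these counts are to be read, were 34.4% (WT), 2.87% (EpiRE), 16.4% (RERE) and 17.1% (BRE), and after rescaling 31.8%, 2.84%, 14.8% and 12.7% in that order. A WT call with a peak between ZT18 and ZT24 was made for 16.4% of tested genes, or 9.69% after rescaling. Of 21 tested genes for other folding factors 12 were called in WT, 11 with a peak between ZT18 and ZT24, and 5, 0 and 3 in RERE, EpiRE and BRE. After rescaling 11 were called in WT, 10 of them with such a peak, and 4, 1 and 3 in the others. The WT examples were Canx, the membrane lectin calnexin (0.45 ± 0.06 log2, peak ZT21.7, adjusted p = 6.52e-05), P4hb, the founding disulfide isomerase (0.28 ± 0.04, peak ZT20.0), Txndc5, another member of that family (0.41 ± 0.07, peak ZT18.6), and Manf. Their median size in WT was 0.30. Dnajb9, a stress-induced co-chaperone of BiP that also serves degradation, was the called gene that did not peak at night: it peaked at ZT9.5 (0.86 ± 0.25, adjusted p = 0.03), close to the ZT10.2 of Herpud1, and is named here after its values were seen. The 3 genes called in BRE, Dnajc10, Erp44 and Sil1, peaked from ZT3.2 to ZT14.1, outside the hours of the members. Between WT and BRE 8 of the 21 differed, against 20.2% of tested genes, and between WT and EpiRE 1 of 21, against 8.51%. After rescaling these were 7 of 21, against 18.7%, and 0 of 21, against 5.39% (limma, with 4 of the 21 at an unadjusted p below 0.05, against 2623 of 12144 tested genes).

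Of 15 tested genes for sensors and transcription factors of the stress response 5 were called in WT, a share near that of all tested genes, and 1, 0 and 3 in RERE, EpiRE and BRE. The 5 peaked between ZT18 and ZT24 in the values as deposited, but after rescaling 3 of 5 did, with 1 between ZT0 and ZT6 and 1 between ZT6 and ZT12. Atf6b, a paralog of the sensor ATF6, swung by 0.49 ± 0.06 log2 in WT with a peak at ZT20.5 and by 0.33 ± 0.06 in RERE. Asns, an asparagine synthetase induced through ATF4, swung by 0.46 ± 0.08 log2 in WT, and Creb3l2 by 0.47 ± 0.09. Creb3l1, a relative of ATF6 also cleaved in the Golgi, peaked at ZT19.7 in WT (0.98 ± 0.25) and at ZT13.1 in BRE (0.60 ± 0.15).

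Of 16 tested genes of ER-associated degradation 5, 5, 1 and 2 were called in WT, RERE, EpiRE and BRE, and after rescaling 5, 2, 1 and 1. The WT share, 31.2%, was near that of all tested genes. Vcp, the ATPase that pulls proteins out of the membrane, swung by 0.36 ± 0.05 log2 in WT with a peak at ZT23.9, and Sel1l, the scaffold of the HRD1 ligase to which HERPUD1 binds, by 0.32 ± 0.07 with a peak at ZT21.6. Edem1, a mannosidase-like protein that hands over glycoproteins, swung by 0.29 ± 0.07 in WT, and Ube2g2, a ubiquitin-conjugating enzyme, by 0.22 ± 0.07. These 4 peaked between ZT20.5 and ZT23.9 in WT, and the remaining called gene, Faf2, at ZT1.43 (0.22 ± 0.06), but after rescaling 2 of the 5 WT calls peaked between ZT18 and ZT24. In RERE 4 of the 5 called genes peaked between ZT0 and ZT6. Of 17 tested genes for translocation and signal sequence receptors 9, 5, 0 and 2 were called, and after rescaling 6, 1, 0 and 2. The WT calls with a peak between ZT18 and ZT24 went from 8 to 3. As deposited, Sec61a1, the channel itself (0.18 ± 0.04, peak ZT20.0), Sec61g (0.24 ± 0.05) and Ssr1 (0.21 ± 0.04) peaked at night in WT, while Sec62, which is also a receptor for clearance of excess ER after stress, peaked at ZT12.4 (0.30 ± 0.05, adjusted p = 0.000886) and at ZT14.1 in RERE (0.28 ± 0.06).

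Among 14 immediate early and heat shock genes known to rise when tissue is handled, 0 were called in WT and EpiRE, 1 in RERE and 3 in BRE. The shares of all tested genes called were 34.4% (WT), 2.87% (EpiRE), 16.4% (RERE) and 17.1% (BRE), and the BRE share of the list, 21.4%, was near the last. By limma 0, 0, 6 and 5 of the 14 had an unadjusted p below 0.05 in WT, EpiRE, RERE and BRE, against 45.4%, 20.5%, 31.4% and 34.2% of tested genes. In BRE Hspb1 (0.64 ± 0.11 log2, peak ZT13.4), Hspa1a (0.53 ± 0.10, peak ZT14.0) and Hspa1b (0.49 ± 0.10, peak ZT13.7) peaked early in the dark. Herpud1, also called in BRE, peaked near them at ZT12.9, while the ER chaperones called there peaked from ZT20.7 on. Hspa1a and Hspa1b are near-identical copies whose reads may be shared. Fosb was the gene called in RERE (0.97 ± 0.26, peak ZT14.4), where Herpud1 peaked at ZT12.2. The summed level of the list ranged from 4455 to 12481 RPKM over WT mice and had r = -0.56 with the 9 genes other than Herpud1 in WT, and -0.02, 0.27 and -0.06 in RERE, EpiRE and BRE. Its WT means were highest at ZT8 (10193 RPKM) and ZT12 (10313) and lowest at ZT0 (7462). Herpud1 peaked at ZT10.2 in WT, and its correlation with the list was not computed. The part of the list in the rhythms, that of Herpud1 included, was not tested.

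Markers of other cells were followed in the same way. The 5 T cell genes measured summed to 29.3 to 81.3 RPKM in WT mice, with means of 71.9 at ZT20 and 36.6 at ZT8, and had r = 0.55 with the 9 genes in WT and 0.18 to 0.62 in the other genotypes. Thy1, which held most of that sum, peaked at ZT23.0 in WT (1.22 ± 0.14 log2), and the defining genes Cd3e, Cd3d and Cd3g averaged 4.77, 1.74 and 6.44 RPKM. Of the plasma cell list 3 of 6 genes were measured, and 1 of them, Sdc1, which keratinocytes also express, averaged 184 RPKM while Jchain and Mzb1 averaged 1.21 and 1.16 RPKM. The sum of the 3 had r = 0.68 with the 9 genes in WT and 0.07 (BRE) to 0.57 (RERE) in the other genotypes, while Jchain peaked at ZT9.85 in WT (1.46 ± 0.36 log2). The 6 hair shaft keratins summed to at most 8.36 RPKM in any mouse and had r of -0.63 (RERE) to -0.27 (EpiRE) with the 9 genes within genotypes. The sebaceous sum had r = -0.53 in BRE, -0.35 in RERE, -0.038 in EpiRE and -0.015 in WT. Within genotypes r ran from -0.31 (RERE) to -0.035 (WT) for the fibroblast sum, from -0.20 (RERE) to 0.29 (WT) for the melanocyte sum and from 0.0071 (RERE) to 0.27 (BRE) for the Langerhans sum. The part of these cells in the rhythms was not tested.

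Markers of the keratinocyte layers were compared with the members in the same way, and their r varied by genotype. The 5 suprabasal genes measured (Krt1, Krt10, Ivl, Lor and Sbsn), made by differentiating keratinocytes, summed to 5893 to 15012 RPKM in WT mice, 7010 to 14937 in RERE, 5154 to 13397 in EpiRE and 7859 to 17371 in BRE. Their sum had r with the 9 genes of 0.41 (EpiRE), 0.40 (WT), -0.076 (RERE) and -0.53 (BRE). In BRE 3 of the 5 were called, against 17.1% of tested genes, namely Ivl (1.12 ± 0.23 log2, peak ZT14.1), Sbsn (0.72 ± 0.19, peak ZT12.2) and Krt10 (0.53 ± 0.14, peak ZT10.6). In WT Ivl alone was called (1.16 ± 0.36, peak ZT21.8), against 34.4% of tested genes. After rescaling none of the 5 was called, against 31.8% (limma, with 1 of 5 at an unadjusted p below 0.05, against 5277 of 12144 tested genes). The 6 basal genes summed to 11267 to 18788 RPKM in WT mice and 10529 to 16580 in BRE, with r of 0.47 (BRE), 0.39 (RERE), 0.16 (EpiRE) and 0.0054 (WT). Of these 6, 1 was called in WT, 0 in RERE and EpiRE, and 2 in BRE, which were Col17a1 and Itga6 with peaks at ZT21.0 and ZT19.7 (limma, with 1, 1, 0 and 5 of 6 at an unadjusted p below 0.05 in WT, RERE, EpiRE and BRE). In that order 34.4%, 16.4%, 2.87% and 17.1% of all tested genes were called, and 45.4%, 31.4%, 20.5% and 34.2% had such an unadjusted p. The part of these layers in the rhythms was not tested.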

How the data were processed

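The submitters' processing notes name Trimmomatic 0.36 for trimming, HISAT2 2.2.1 for alignment, SAMtools 1.3.1, featureCounts 1.6.0 for counting, edgeR (version not given) and the build mm10. The authors deposited 1 log2 value per gene and library in a table per genotype. No label names the unit, and these values behave as log2 RPKM with a prior count of 2 reads added, which is inferred here from the floor of unread genes, as is depth. The authors' deposited q-values of JTK_CYCLE and BIOCYCLE, and JTK_CYCLE's other column, a peak time in hours that is not used, come in the tables of those tests. The JTK_CYCLE tables also hold 96 columns of values per library, whose names match no sample label and which were not used.

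Levels are 2 to the power of the log2 value. Tests covered genes averaging 1 RPKM or more (12144 of 22384, of which 230 are short genes with 1 value in every library of a genotype). Those 230 could not be called, and they are counted in the shares of all tested genes. R 4.3.3 ran limma 3.58.1, with lmFit and a variance trend in eBayes. Rhythms were tested by the F test of a 24 h cosine and sine, and differences by the F test of their products with genotype. P-values were adjusted by Benjamini and Hochberg over all tested genes, at 0.05. No count test was run, since counts were not used here. Both tests were also run on simulated data with independent noise in each gene, unlike the correlated genes here, and the outcome is not given.

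Alternatives were rescaling by the median of ratios, a pseudocount of 1, no filter, no variance trend, time as a factor, a replicate block, and leaving out replicate numbers or single libraries. The named genes are the 10 members, the 4 genes with the smallest adjusted p of each related list, and the 10 genes most correlated with the members. The members and lists were chosen with earlier results of these data known. Mice are separate animals, and the tests weigh the fitted terms against the variation between mice that the fit leaves. Positions are from GENCODE M21, and promoters from the RefSeq table (GRCm38.p6), where all 10 genes were found.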

Additional observations from a re-analysis of the deposited data

Results flagged for a closer look

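Of 240 groups of 4 mice (10 genes, 4 genotypes, 6 times) 11 held a mouse whose gap to the next exceeded Dixon's 95% limit as a share of the range, and chance gives about 1 such group in 20. In EpiRE at ZT8 Hspa5 had a high mouse at 117 RPKM (median of the other 3, 84.5), Hsp90b1 one at 122 (104), Herpud1 one at 72.2 (54.0), and Sdf2l1 a low mouse at 7.52 (10.6). Also in EpiRE, Sdf2l1 had a high mouse at 12.1 RPKM at ZT12 (9.49) and Dnajb11 one at 20.2 at ZT20 (17.2). In BRE Hsp90b1 had a high mouse at 118 RPKM at ZT4 (112) and Calr a low one at 101 at ZT12 (136). In RERE Pdia4 had a high mouse at 41.7 RPKM at ZT16 (33.3) and Calr a low one at 119.9 at ZT4 (138). In WT Dnajb11 had a high mouse at 22.2 RPKM at ZT16 (18.2). Of these libraries 1 stood apart for more than 1 gene: mouse 4 of EpiRE at ZT8 was the high mouse for Herpud1 and the low mouse for Sdf2l1.

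Rhythm differences that passed the test, out of 60 made, were 4 between WT and EpiRE (adjusted p of 0.0477 for Calr, 0.0148 for Hsp90b1, 0.0123 for Pdia6 and 0.0388 for Sdf2l1), 6 between WT and BRE (0.00605 for Dnajb11, 0.0317 for Hsp90b1, 0.0229 for Pdia3, 0.0419 for Pdia6, 0.00953 for Sdf2l1 and 0.00591 for Xbp1) and 1 between EpiRE and BRE (0.0355 for Xbp1), by limma with Benjamini-Hochberg adjustment over all tested genes.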

How the results depend on the processing

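Of 240 refits of the members' rhythms under 6 processing alternatives 224 stayed on the same side of the threshold, 14 lost and 2 gained a call, and of 360 refits of the differences 341 stayed, 16 lost and 3 gained one. Counts moved by more than 1.5 times in these cases. With the authors' JTK_CYCLE q the count was 3 in RERE, 0 in EpiRE and 1 in BRE, and with BIOCYCLE 0, 0 and 0. Without the filter on low values it was 2 in EpiRE, 2 for WT against EpiRE and 0 for EpiRE against BRE. With time as a factor it was 1 for WT against EpiRE and 3 for WT against BRE. Without the filter more genes are tested, and the cause of these changes was not tested. Leaving out 1 replicate number, which removes 6 mice of a genotype, gave 9 called members in WT, 0 to 7 in RERE, 0 to 3 in EpiRE, 0 to 3 in BRE, 0 to 8 for WT against EpiRE, 1 to 5 for WT against BRE and 0 for the other pairs. Leaving out 1 library gave 9 to 10 in WT, 5 to 8 in RERE, 2 to 5 in EpiRE and 4 to 6 in BRE, and 894 of 960 member calls stayed. For fits without the filter, with time as a factor, with a replicate block or with mice left out, the share of all tested genes called is not given. A changed count of members there cannot be told apart from a change over all genes.

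A replicate number is shared across times by label only: same-numbered mice deviated together with a mean correlation of -0.00308 (WT), 0.0275 (RERE), -0.0213 (EpiRE) and -0.00674 (BRE), and 7, 10, 4 and 5 of 24 libraries correlated best with their own number. With the number as a replicate block 9, 6, 3 and 4 members were called in WT, RERE, EpiRE and BRE. The calls lost were Hspa5 in WT (adjusted p = 0.0713), Pdia6 in EpiRE (0.0666), Hsp90b1 in BRE (0.0648) and Pdia6 between WT and BRE (0.0528), and 96 of 100 results stayed on the same side of the threshold.

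Depth bears most on Sdf2l1, at 94.0 to 507 estimated reads per library.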
